A study of Mus musculus with 29 samples.

Results

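In gastrocnemius muscle, the large calf muscle, the combination of calorie restriction (CR) and treadmill training (EX), called CREX, was compared with the sedentary, freely fed control. The comparison took every skeletal muscle (SkM) library that its label places in either group, 3 CREX and 4 control libraries, 7 of the 29 in the series, and covered all genes in the table. The other libraries hold CR alone (3) and EX alone (4) in the same muscle, and the same 4 groups in brown adipose tissue (BAT). All mice were male C57BL/6J wild-type animals that entered the study at 8 weeks of age. Over 8 weeks, CREX mice had their food lowered stepwise to 70% of free intake and ran on a treadmill at 12 m/min for 1 h a day on 5 days of each week, while control mice ate freely and did not train. All mice went 6 h without food before the tissue was taken, and trained mice were sampled 24 h after their last run. The labels do not say whether each library is a different mouse, so p-values measure only the spread between these samples, and which part of the gastrocnemius was taken is not stated.

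Skeletal muscle is both a protein store and a fuel consumer. When food is scarce, glucocorticoids and low insulin signaling switch on the forkhead transcription factors FOXO1 and FOXO3 and a set of genes that release amino acids, export nitrogen as glutamine and spare glucose. Endurance training is known to raise mitochondrial content, capillary supply and fatty acid oxidation, most of all in slow (type I) and fast oxidative (type IIa) fibres, whereas type IIb fibres, which make up most of the mouse gastrocnemius, depend on glycolysis.

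The 7 libraries held 23050918 to 23283526 counts each, so depth was even, and levels are given as CPM, counts scaled to the size of the library and between libraries. The type IIb myosin heavy chain Myh4, the defining gene of the bulk of this muscle, was at 18316 to 29941 CPM in the controls and 33309 to 49430.0 CPM in CREX, so all 7 were muscle. The libraries nevertheless stood apart in ways that touch the results. Myh7, the slow myosin heavy chain, was at 181, 616, 486 and 791 CPM in control replicates 1 to 4 and at 108, 6.30 and 0.121 CPM in CREX replicates 1 to 3. The slow troponin Tnnc1 was at 75.8, 144, 116 and 125 CPM in the controls and 21.5, 1.86 and 0.485 CPM in CREX. Both slow genes were thus lower in every CREX library than in any control, by far the most in replicates 2 and 3. The type IIa myosin Myh2 was at 2986, 2945, 2066 and 3677 CPM in the controls and at 2780.3, 259 and 211 CPM in CREX, where replicate 1 lay within the control range and the other two were far under it. Summed over 13 slow fibre genes, the level was 1515 to 2568 CPM in the controls and 861, 156 and 105 CPM in CREX. In bulk tissue fewer fibres of a type and less RNA per fibre cannot be told apart, and whether the pieces of muscle differed in their share of oxidative fibres was not tested.

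CREX replicate 1, the library nearest to the controls in fibre genes, had higher levels of some fat and liver marker genes. The fat cell hormone Adipoq was at 14.5, 0.911 and 3.48 CPM in CREX replicates 1 to 3 against 0 to 1.76 CPM in the controls, and the liver product Alb was at 34.2, 0.166 and 0.283 CPM against 0.185 to 3.21 CPM. Of the 7 libraries compared, CREX replicate 1 was the highest for both, and in replicate 3 Adipoq was also above the controls. In CREX replicate 1 against the controls, all 6 fat cell and all 4 liver markers tested had positive log2 fold changes. The medians were 3.97 and 4.29. Cfd (4.01) and Cidec (3.93), both fat cell genes, were close to Adipoq (4.22). The fat cell gene Fabp4 differed less, with a log2 fold change of 0.02 there. The liver product Apoa1 was at 1.84 CPM there and at up to 1.40 CPM in the controls. Alb was also at 28.2, 152 and 143 CPM in the CR libraries. The summed level of 5 endothelial markers was 102 to 197 CPM in CREX and 210 to 275 CPM in the controls, without overlap, whereas that of 5 macrophage markers overlapped (7.37 to 15.3 against 9.08 to 16.7 CPM). Of 6 lymphocyte markers, 4 had no read in any CREX library and 1 had none in any control. Their sum was 0.139 to 0.745 CPM in the controls and 0.0408 to 0.124 CPM in CREX. These levels are near the floor, and none of the 6 passed the filter on low counts.

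**Figure D1:**
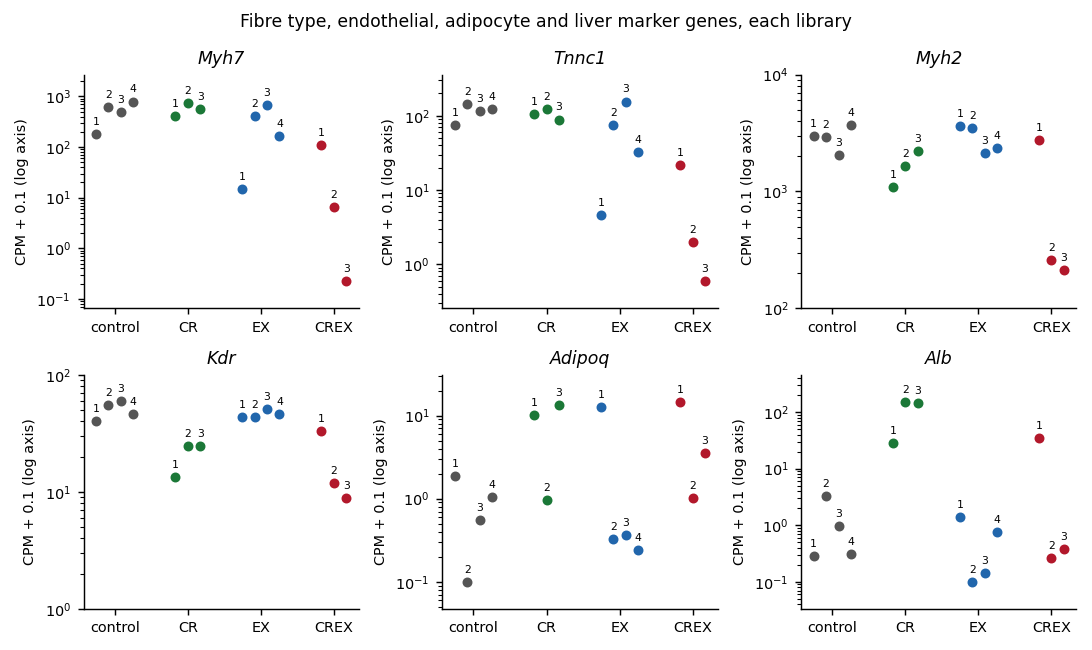
Levels of 6 marker genes in each skeletal muscle library, as CPM plus 0.1 on a log axis, for control, CR, EX and CREX; the digit beside a point is the replicate number. Myh7 and Tnnc1 (slow fibres) fall from the controls to CREX replicate 1 and further to replicates 2 and 3, Myh2 (type IIa fibres) is lowest in CREX replicates 2 and 3 and also below the controls in CR replicates 1 and 2, and Adipoq and Alb are high in CREX replicate 1, several CR libraries and, for Adipoq, EX replicate 1.

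CREX and control differed in 1547 of 13114 genes tested (11.8%), the differentially expressed genes (DEGs), of which 693 were upregulated (5.28% of genes tested) and 854 downregulated (6.51%). A DEG had a Benjamini-Hochberg adjusted p under 0.05 in edgeR's quasi-likelihood test and a fold change above 1.5. The median log2 fold change over all genes tested was 0.00. The 3 CREX and 4 control libraries did not overlap for 3816 genes (29.1%). This count moved with CREX replicate 1 and with the slow fibre genes. CREX replicate 1 alone against the controls gave 555 DEGs (4.03%), of which 363 were upregulated, and the fit without it gave 2795 (21%). When the slow fibre score, the mean log2 level of the 13 slow fibre genes, was a term in a fit over all 14 SkM libraries, 186 genes passed (1.37%), 119 of them upregulated. With the same term in the 7 libraries alone, 60 genes passed (0.458%), but there the score did not overlap between the groups (5.79 to 6.48 in the controls, 1.65 to 5.06 in CREX), so that score and group cannot be told apart. Of the 1547 DEGs, 383 also passed in CREX replicate 1 alone, and with the score as a term over 14 libraries 133 passed and 1534 had the same sign. These fits use the same libraries and are not independent. Over 14 libraries, CREX replicates 2 and 3 still had the lowest scores (2.61 and 1.65). The next lowest was 4.12, in EX replicate 1. Score and group are thus only partly separated in that fit. A gene that did not pass in it is not shown to follow the slow fibre genes. A gene named with its values below did not pass with the score over 14 libraries unless the text says that it did. In what follows, values with ± are log2 fold changes with their standard error (SE). Counts of list members are to be read beside the shares over all genes tested, 5.28% upregulated and 6.51% downregulated. A count near or under these shares is not a result about its list.

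Among the pathway lists, glucocorticoid receptor targets had the highest median. Of 24 tested, 13 were upregulated and none downregulated, with a median log2 fold change of 1.57 beside 0.00 over all genes. Fkbp5, which encodes a cochaperone that dampens the receptor in a feedback loop, was at 15.6, 13.1, 14.7 and 13.98 CPM in the controls and 97.2, 148 and 116 CPM in CREX. Glul, glutamine synthetase, was at 182, 106, 110.1 and 145 CPM in the controls and 699.6, 962 and 837 CPM in CREX. For both genes every CREX library lay far above every control. The log2 fold changes were 3.06 ± 0.15 (SE) for Fkbp5, with an adjusted p of 1.68e-05 that was the smallest of all genes, and 2.61 ± 0.21 for Glul (adjusted p = 0.000212). Hif3a, a hypoxia-inducible factor subunit, rose from 0.591-0.972 to 4.08-6.21 CPM (log2 fold change 2.70 ± 0.24, adjusted p = 0.000321). Klf15, a Krüppel-like factor that drives amino acid breakdown, rose less but as evenly, from 40.7-43.3 to 68.2-87.8 CPM (log2 fold change 0.90 ± 0.11, adjusted p = 0.00166). With the slow fibre score as a term over 14 libraries, 5 of 25 list members were upregulated with a median of 1.01, and in CREX replicate 1 alone 9 of 25 with a median of 1.30. Fkbp5, Glul and Hif3a passed in both fits.

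FOXO and atrophy genes changed in part. Of 28 tested, 7 were upregulated and 3 downregulated (median 0.24). The downregulated genes were the autophagy gene Gabarapl1, the ubiquitin ligase gene Fbxo30 and the nicotinamide riboside kinase gene Nmrk2. Foxo1 was at 13.1, 13.6, 14.7 and 16.3 CPM in the controls and 56.4, 67.2 and 124 CPM in CREX, and Foxo3 was at 14.9, 15.9, 15.4 and 19.2 CPM and 33.2, 38.1 and 40.6 CPM. Neither gene overlapped between the groups, and CREX replicate 3 held the highest level of both. The fits gave log2 fold changes of 2.51 ± 0.25 for Foxo1 (adjusted p = 0.000792) and 1.18 ± 0.12 for Foxo3 (adjusted p = 0.000782). Mettl21e, which encodes a muscle protein methyltransferase, rose by 1.80 ± 0.23 (adjusted p = 0.002) and Gadd45a, a stress gene induced in wasting muscle, by 0.95 ± 0.15 (adjusted p = 0.00489). Trim63, the ubiquitin ligase MuRF1 and the list's best-known member, was at 136, 158, 151 and 158 CPM in the controls and 155, 302 and 387 CPM in CREX, where replicate 1 lay within the control range; Trim63 and myostatin (Mstn) below were named after their values were seen. Its log2 fold change of 0.89 ± 0.25 passed the test (adjusted p = 0.0386) but turned to -0.19 with the slow fibre score as a term. Mstn, the secreted brake on muscle growth, was at 28.6, 36.9, 31.7 and 28.6 CPM in the controls and 34.8, 90.6 and 70.1 CPM in CREX (log2 fold change 1.04 ± 0.26, adjusted p = 0.0301), again with replicate 1 inside the control range. With that term Foxo1 and Foxo3 passed and the other list members did not.

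Genes of insulin and nutrient sensing showed 6 upregulated members and 1 downregulated, Grb14, among 38 (median 0.15). Pik3r1, the regulatory subunit of phosphoinositide 3-kinase, was at 9.21, 11.4, 10.1 and 12.3 CPM in the controls and 54.4, 60.1 and 25.3 CPM in CREX. Tbc1d1, a Rab regulator of glucose transporter traffic, was at 23.8, 27.5, 31.6 and 37.03 and 82.03, 93.9 and 60.1 CPM. CREX replicate 3 was the lowest of the CREX libraries for both genes and still lay above all controls. The log2 fold changes were 2.11 ± 0.27 (adjusted p = 0.00275) and 1.38 ± 0.18 (adjusted p = 0.0025). Deptor, an inhibitor of the growth kinase mTOR, rose by 0.97 ± 0.14 (adjusted p = 0.00345) and Prkag3, the muscle-specific gamma subunit of AMP-activated kinase, by 0.94 ± 0.16 (adjusted p = 0.00608). Pik3r1 and Deptor also passed with the slow fibre score as a term (2.51 and 1.07).

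Amino acid and glycogen enzymes held few but large changes. In amino acid metabolism 4 of 33 genes were upregulated, none downregulated, and the median was 0.00. These were Shmt1, Glul, described above, Gpt2, the mitochondrial alanine aminotransferase, which rose from 106-123 to 282, 439.9 and 509 CPM (log2 fold change 1.85 ± 0.18, adjusted p = 0.000602), and Prodh, which starts proline breakdown and rose from 6.29-7.36 to 15.9, 15.99 and 15.0 CPM (log2 fold change 1.20 ± 0.11, adjusted p = 0.00041). Of 21 glycogen genes, 3 were upregulated (Ppp1r3c, Stbd1 and Pygm) and 1 downregulated, the latter near the 6.51% over all genes tested. Ppp1r3c, a glycogen-targeting subunit of protein phosphatase 1, was at 131, 124, 102 and 163 CPM in the controls and 523, 865 and 839 CPM in CREX, with no overlap (log2 fold change 2.50 ± 0.21, adjusted p = 0.00028). Ugp2, which makes the UDP-glucose used for glycogen, fell from 592-674 to 374-443 CPM (log2 fold change -0.65 ± 0.13, adjusted p = 0.0103). Gpt2, Prodh and Ppp1r3c passed with the slow fibre score as a term as well.

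**Figure D2:**
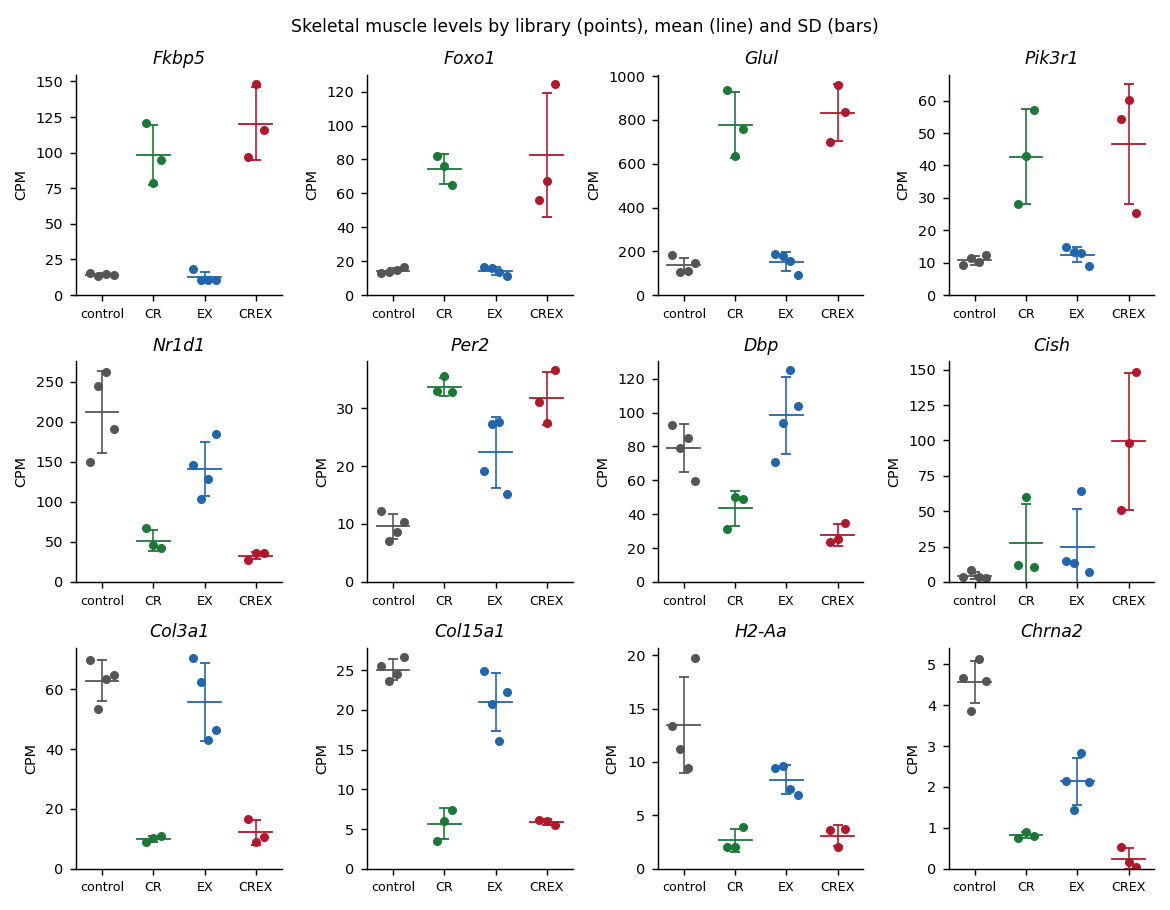
CPM of 12 genes in each SkM library by group, with the group mean as a line and the SD as bars. In CREX and CR, Fkbp5, Foxo1, Glul and Pik3r1 lie above control and EX, Col3a1, Col15a1 and H2-Aa lie below them, and Cish has its highest mean in CREX.

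MHC class II genes, which load and present peptides to helper T cells and are made mainly by antigen-presenting cells, were the pathway list with the lowest median apart from the slow fibre genes. Of 10 list members, 6 passed the filter on low counts and all of these 6 were downregulated, with a median log2 fold change of -1.99. The 250 bases before the RefSeq start of 2 of them are shown because they hold both conserved motifs of these promoters close to each other. Capitals mark the X box core (AACNGATG), part of the element bound by the RFX complex, and the Y box (ATTGG, or CCAAT where it lies on the opposite strand), bound by NF-Y. Both are on the plus strand of GRCm38.p6, H2-Eb1 at chr17:34305617-34305866 and H2-DMb1 at chr17:34152941-34153190.
H2-Eb1: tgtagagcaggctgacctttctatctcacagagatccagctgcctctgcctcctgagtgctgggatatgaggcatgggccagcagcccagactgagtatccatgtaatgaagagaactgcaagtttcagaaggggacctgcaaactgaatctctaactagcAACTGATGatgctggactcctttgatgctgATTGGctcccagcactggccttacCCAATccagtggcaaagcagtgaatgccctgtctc
H2-DMb1: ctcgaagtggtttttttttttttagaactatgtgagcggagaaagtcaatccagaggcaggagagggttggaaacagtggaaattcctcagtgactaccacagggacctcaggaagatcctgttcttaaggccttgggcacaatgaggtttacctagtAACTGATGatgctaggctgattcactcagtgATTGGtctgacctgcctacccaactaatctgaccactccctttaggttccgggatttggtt
In H2-Eb1 the X box core lay 89 to 82 bases and the Y boxes 59 to 55 and 35 to 31 bases before the start, and in H2-DMb1 the motifs lay 92 to 85 and 61 to 57 bases before it. Searched on both strands, the X box core was present in 1.98% and the Y box in 33.8% of 32851 promoters of this length. Of the genes tested, 4 had an entry in the RefSeq promoter table. H2-Aa and H2-DMa held a Y box only, and H2-Ab1 and Cd74 had no entry.

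H2-Aa, an alpha chain, was at 13.3, 11.2, 9.45 and 19.7 CPM in the controls and 3.59, 2.03 and 3.72 CPM in CREX. H2-Eb1, a beta chain, was at 7.78, 5.36, 5.59 and 11.3 and 1.92, 1.16 and 2.02 CPM, and Cd74, the invariant chain that chaperones the pair, at 31.3, 24.3, 22.7 and 42.4 and 10.3, 3.81 and 8.49 CPM. All CREX libraries lay below all controls for these genes, and control replicate 4 was the highest each time. CREX minus control was, on the log2 scale, -2.12 ± 0.30 (adjusted p = 0.0037), -2.15 ± 0.32 (adjusted p = 0.00404) and -2.01 ± 0.36 (adjusted p = 0.0117), and that of H2-Ab1 was -1.97 ± 0.40 (adjusted p = 0.0168). The peptide exchange factors H2-DMa and H2-DMb1, named after their values were seen, had log2 fold changes of -0.997 ± 0.28 and -1.34 ± 0.38 (adjusted p = 0.037 and 0.0386). The sizes held in the other fits better than the calls: the median was -1.85 with the slow fibre score as a term and -1.56 in CREX replicate 1 alone, where 0 and 1 of the 6 genes passed. None of 5 macrophage markers passed the test, with log2 fold changes from -1.18 to 0.28, and whether fewer antigen-presenting cells were present was not tested beyond these markers. Interferon-stimulated genes had 7 of 24 members downregulated and none upregulated, with a median of -0.59, but none of them passed with the slow fibre score as a term over 14 libraries (median -0.18) or in CREX replicate 1 alone (median -0.37).

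Among extracellular matrix genes, most of those that passed the test were downregulated, and most genes of the lists other than the fibrillar collagens did not pass. Of 7 fibrillar collagen genes tested, 4 were downregulated (Col3a1, Col1a1, Col1a2 and Col5a2) and 1 upregulated. Col3a1 and Col1a1 encode the fibrils of connective tissue. Col3a1 was at 69.9, 53.5, 63.3 and 64.6 CPM in the controls and 16.7, 8.95 and 10.8 CPM in CREX, and Col1a1 at 33.7, 24.9, 39.3 and 35.7 and 10.6, 7.17 and 5.46 CPM. Both were below every control in every CREX library, with log2 fold changes of -2.37 ± 0.22 (adjusted p = 0.000495) and -2.11 ± 0.24 (adjusted p = 0.00166). Col11a2, a minor fibrillar chain, went the other way, from 1.11-2.41 to 5.63-7.02 CPM (log2 fold change 1.66 ± 0.24, adjusted p = 0.0032).

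In the basement membrane list 3 of 20 genes were downregulated and none upregulated. Col15a1, a collagen that anchors basement membranes of fibres and capillaries, was at 25.5, 23.6, 24.5 and 26.6 CPM in the controls and 6.20, 5.96 and 5.46 CPM in CREX. The spread within each group was small, and the log2 fold change of -2.10 ± 0.11 had the second smallest adjusted p of all genes (2.31e-05). The network collagens Col4a1 and Col4a2 had log2 fold changes of -1.22 ± 0.18 and -1.21 ± 0.20 (adjusted p = 0.00352 and 0.00528), and Col6a2 of the microfibrillar type VI had one of -1.22 ± 0.16 (adjusted p = 0.0022). Among 26 matricellular genes 6 were downregulated and none upregulated, with the elastic fibre protein Fbn1 at -1.77 ± 0.22 (adjusted p = 0.00191) and the collagen-binding Sparc at -0.94 ± 0.12 (adjusted p = 0.00225). Matrix turnover genes moved both ways, with the gelatinase Mmp2 at -0.82 ± 0.11 (adjusted p = 0.00275) and the metalloproteinase inhibitor Timp3 at 0.72 ± 0.14 (adjusted p = 0.00983). Of the named matrix genes, Col3a1, Col1a1, Col11a2, Col15a1, Col4a1, Col6a2, Sparc, Mmp2 and Timp3 passed also with the slow fibre score as a term. The fibroblast product Dcn was at 208 to 267 CPM in the controls and 213 to 223 CPM in CREX and did not pass, while the list of 5 fibro-adipogenic markers it belongs to had 4 negative values and a median of -0.56, with Dpp4 downregulated (-1.42).

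**Figure D3:**
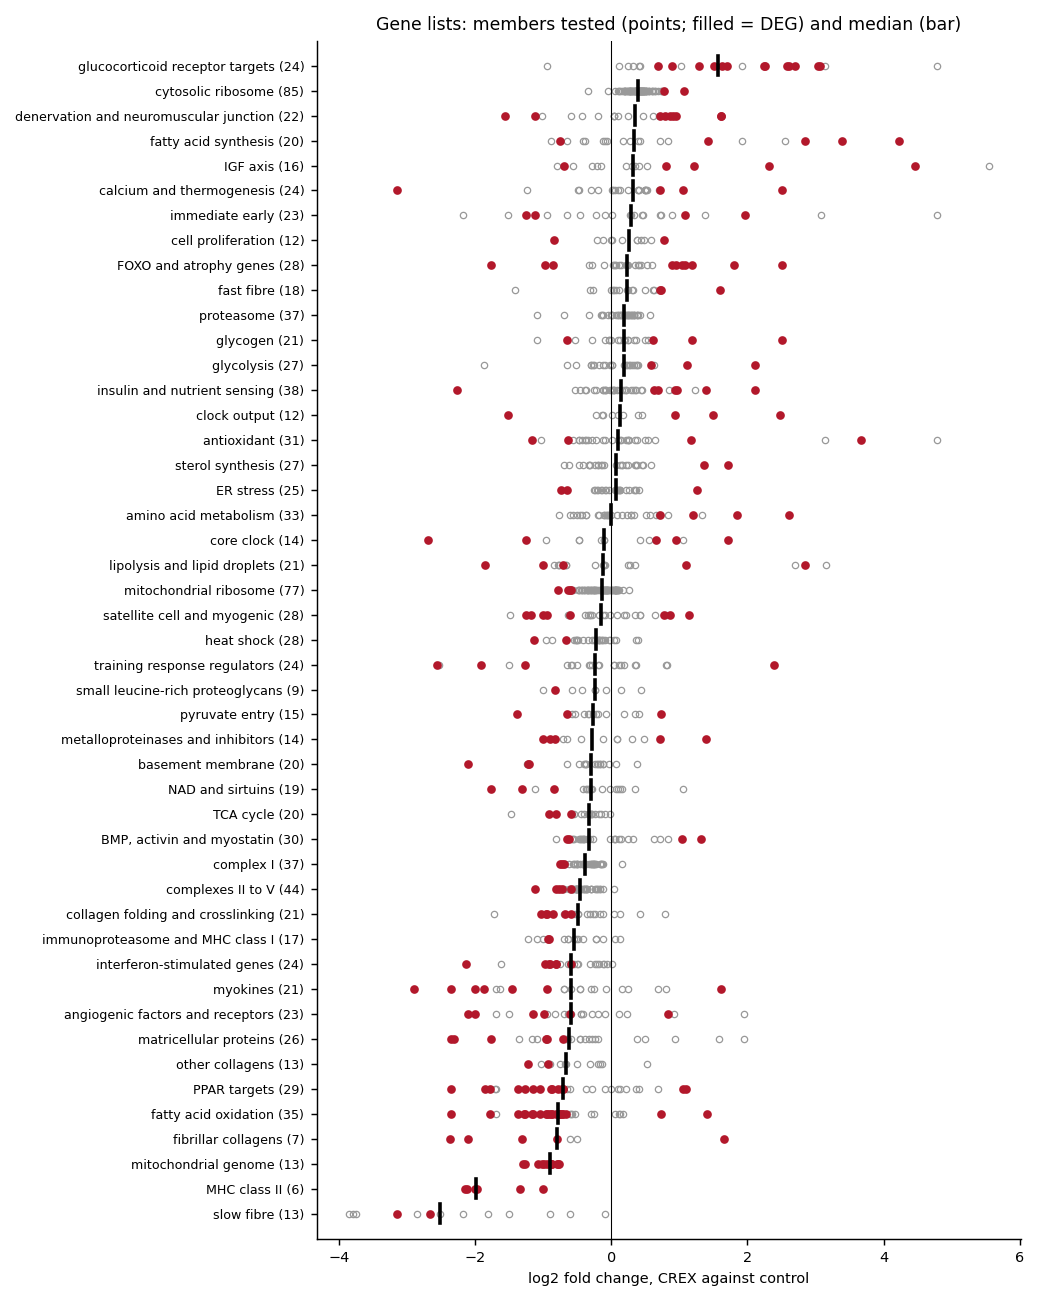
Log2 fold change of CREX against control for the tested members of each pathway list (points, filled for DEGs), with the list median as a bar; the number of members tested is in brackets. Glucocorticoid receptor targets lie furthest to the right, with a median of 1.57, and MHC class II, the mitochondrial genome and slow fibre genes furthest to the left.

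The circadian clock differed between the groups in single genes. Of 14 core clock genes 3 were upregulated, among them Per2 and Rora, and 2 downregulated (median -0.11), and of 12 output genes 3 were upregulated (Nfil3, Wee1 and Pnmt) and 1 downregulated. Nr1d1 (REV-ERBα), a repressor in the negative limb of the clock, was at 149, 245, 262 and 191 CPM in the controls and 27.5, 35.7 and 35.6 CPM in CREX. Dbp, an output factor, was at 92.4, 78.95, 85.2 and 59.6 and 23.3, 25.1 and 35.01 CPM. Per2, a period gene, was at 12.2, 7.13, 8.64 and 10.3 and 31.0, 27.5 and 36.6 CPM. None of these genes overlapped between the groups. The log2 fold changes were -2.69 ± 0.21 for Nr1d1 (adjusted p = 0.000212), -1.51 ± 0.19 for Dbp (adjusted p = 0.0018) and 1.72 ± 0.18 for Per2 (adjusted p = 0.000792). Nfil3, a repressor that opposes Dbp at the same sites, rose by 2.48 ± 0.30 (adjusted p = 0.00252), and the repressor Bhlhe41 had a log2 fold change of -1.25 ± 0.19 (adjusted p = 0.0037). The hour of tissue collection was not given in the sources used here, so that a shift in phase and a difference in level cannot be told apart. Nr1d1 and Per2 passed in each of CREX replicate 1 alone and the fit with the slow fibre score over 14 libraries.

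Of the feedback genes of growth hormone signaling, Cish and Socs2 were upregulated, whereas Socs3 did not pass (log2 fold change 5.55). In the IGF axis list 4 of 16 genes were upregulated and 1 downregulated. Cish, a suppressor of cytokine signaling induced by STAT5 downstream of the growth hormone receptor, was at 3.24, 8.57, 3.59 and 2.61 CPM in the controls and 51.2, 98.3 and 148 CPM in CREX. Socs2, of the same family, was at 4.82, 7.03, 5.0 and 4.47 and 20.8, 41.6 and 17.8 CPM. Control replicate 2 was the highest control for both, and every CREX library lay above it. The log2 fold change of Cish, 4.46 ± 0.52 (adjusted p = 0.00404), was the second largest among upregulated genes without overlap and with a mean of at least 1 CPM, and that of Socs2 was 2.32 ± 0.30 (adjusted p = 0.00317). Igf1 itself, named after its values were seen, was at 6.11, 6.57, 6.41 and 5.50 CPM in the controls and 12.03, 13.6 and 6.63 CPM in CREX (log2 fold change 0.80 ± 0.22, adjusted p = 0.0344), with CREX replicate 3 just above the highest control. Igfals, the acid-labile subunit that holds IGF complexes, rose by 1.21 ± 0.26 (adjusted p = 0.0147) and Igfbp7, a binding protein, had a log2 fold change of -0.69 ± 0.15 (adjusted p = 0.0169). Socs2 passed with the slow fibre score as a term and Cish did not (4.87, adjusted p = 0.2).

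Genes of fatty acid oxidation were mostly downregulated. Of 35 tested, 20 were downregulated and 2, the acyl-CoA synthetases Acsl3 and Acsl6, upregulated (median -0.78). Hadhb, a subunit of the mitochondrial trifunctional protein, was at 441, 372, 363 and 364 CPM in the controls and 233, 137 and 150.0 CPM in CREX, and Acsl1, the main acyl-CoA synthetase of muscle, at 364, 399, 387 and 399 and 237, 127 and 118 CPM. CREX replicate 1 lay between the controls and the other CREX libraries for both genes. The fitted log2 fold changes were -1.15 ± 0.20 (adjusted p = 0.00633) and -1.27 ± 0.24 (adjusted p = 0.00928). The peroxisomal enzyme Ehhadh had a log2 fold change of -1.37 ± 0.20 (adjusted p = 0.0033) and the thioesterase Acot1 one of -1.78 ± 0.31 (adjusted p = 0.00642). With the slow fibre score as a term 1 of the 35 genes passed, Ehhadh, and the median was -0.40. The coactivator Ppargc1b and the orphan receptor Esrrg, which drive oxidative genes, had log2 fold changes of -1.91 ± 0.23 and -2.56 ± 0.53 (adjusted p = 0.00166 and 0.0231), whereas Nrip1, a corepressor of such genes, rose from 10.6-13.2 to 43.9, 59.6 and 76.6 CPM (log2 fold change 2.39 ± 0.18, adjusted p = 0.00018). Ppargc1b and Nrip1 passed with the score as a term and Esrrg did not.

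All 13 protein-coding genes of the mitochondrial genome were downregulated, with a median of -0.90, and none of them overlapped between the groups. ND3, a complex I subunit, was at 5454, 3437, 3513 and 3026 CPM in the controls and 1566, 1451 and 1743 CPM in CREX, and COX2, of complex IV, at 43306, 37985, 35866 and 29452 and 23349, 17379 and 18425 CPM. Together the 13 genes took 33.3% to 37.2% of all counts in the controls and 18.5% to 27.3% in CREX, so that the makeup of the libraries differed between the groups. The log2 fold changes were -1.29 ± 0.21 for ND3 and -0.90 ± 0.19 for COX2 (adjusted p = 0.0054 and 0.0131). In CREX replicate 1 alone the median was -0.53 and none of the 13 genes passed, and with the slow fibre score as a term over 14 libraries it was -0.56 and ND3 alone passed. CR against control gave a median of -0.91 for the 13 genes, with 12 of them downregulated. In EX against control the median was -0.03 and none was downregulated. The summed slow fibre level in CR, 2212 to 2471 CPM, lay within the control range of 1515 to 2568 CPM. Whether the drop in CREX follows the slow fibre genes was not tested beyond the fits above. Nuclear subunits moved less in CREX, with medians of -0.38 for complex I and -0.46 for complexes II to V. Negative values were held by 36 of 37 and 43 of 44 genes, and none was upregulated. Of the 37 complex I genes 3 were downregulated, near the 6.51% over all genes tested, and of the 44 others 5 were. Examples were Ndufab1 (log2 fold change -0.69 ± 0.17, adjusted p = 0.0259), Cox7a1, the heart and muscle isoform of a complex IV subunit (log2 fold change -1.12 ± 0.25, adjusted p = 0.0172), and Sdhb of complex II (log2 fold change -0.81 ± 0.23, adjusted p = 0.0425). None of these nuclear genes passed with the slow fibre score as a term or in CREX replicate 1 alone.

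Most slow fibre genes did not pass the test. All 13 slow fibre genes had negative log2 fold changes (median -2.52), and 2 of them were DEGs, the slow tropomyosin Tpm3 (log2 fold change -2.67 ± 0.56, adjusted p = 0.0232) and the slow calcium pump Atp2a2 (log2 fold change -3.14 ± 0.68, adjusted p = 0.0257). Without CREX replicate 1, 12 of the 13 were downregulated. Tnni1 and Tnnc1 had larger values (-3.79 ± 1.11 and -3.85 ± 1.20) and did not pass (adjusted p = 0.0701 and 0.0819). Of 18 fast fibre genes 3 were upregulated and none downregulated, and with the slow fibre score as a term over 14 libraries none of the 18 passed, with a median of 0.01. Actn3, the Z-disc protein of fast fibres, was at 4579, 4639, 5205 and 4149.9 CPM in the controls and 9149, 16943 and 16393 CPM in CREX (log2 fold change 1.60 ± 0.21, adjusted p = 0.00219). The fast calcium pump Atp2a1 rose by 0.72 ± 0.15 (adjusted p = 0.0131) and the fast myosin light chain Mylpf by 0.74 ± 0.21 (adjusted p = 0.041). Myh4 had a log2 fold change of 0.61 ± 0.21 and did not pass (adjusted p = 0.0709). Ucp3 and Plin4, which are linked to fatty acid use and to the surface of lipid droplets, went against the oxidative genes and rose by 1.05 ± 0.15 and 1.10 ± 0.14 (adjusted p = 0.00275 and 0.00194). With the score as a term Plin4 passed and Ucp3 did not (adjusted p = 0.0114 and 0.254).

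**Figure D4:**
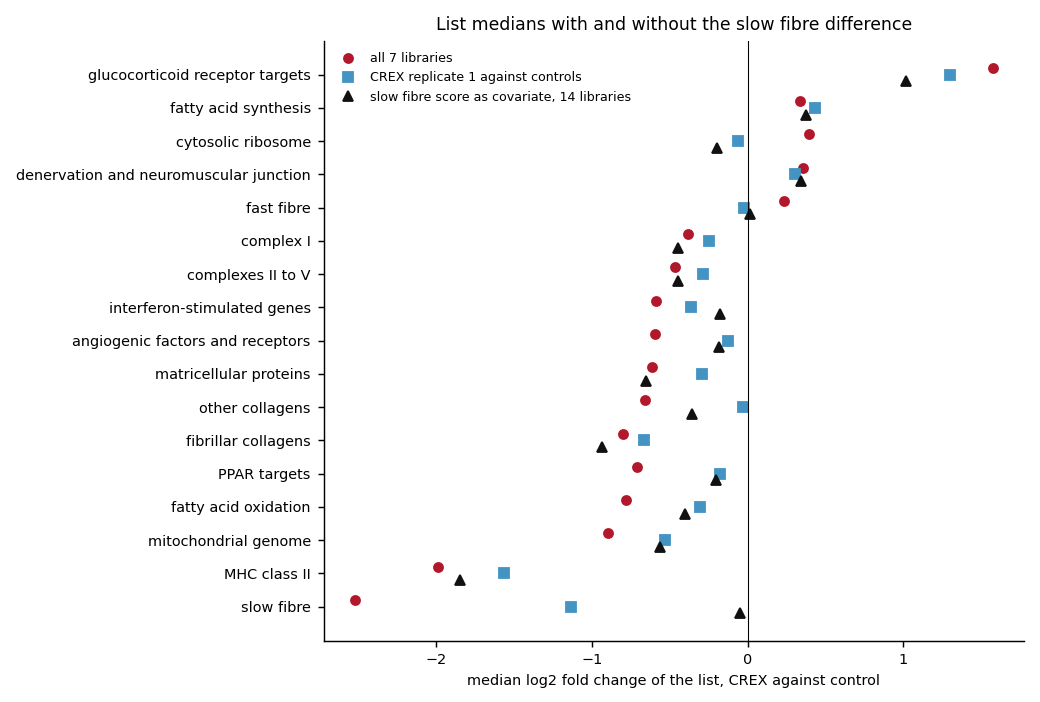
Median log2 fold change of 17 gene lists over all 7 libraries (circles), in CREX replicate 1 alone against the controls (squares) and with the slow fibre score as a term over 14 libraries (triangles). The medians of glucocorticoid receptor targets and MHC class II genes stay far from 0 in all 3 fits, and that of cytosolic ribosome genes changes sign. That of slow fibre genes moves from -2.52 to -0.05 with the score. This move was fixed in advance, because the score is the mean of these same genes.

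Fatty acid synthesis had 4 of 20 genes upregulated (Scd1, Fasn, Pnpla3 and Thrsp) and 1 downregulated (Mlxipl). Scd1, the stearoyl-CoA desaturase, was at 12.1, 3.77, 8.0 and 9.72 CPM in the controls and 362, 27.9 and 79.9 CPM in CREX. Fasn, fatty acid synthase, was at 8.38, 7.97, 8.41 and 9.76 and 189, 24.3 and 57.8 CPM. Both were highest in CREX replicate 1, the library with the most Adipoq and with 90.5 CPM of the fat cell gene Cfd, but they also lay above every control in replicates 2 and 3. In log2 terms the changes were 4.22 ± 0.95 (adjusted p = 0.0342) and 3.39 ± 0.67 (adjusted p = 0.0213). With an adipocyte marker score as a term over 14 libraries the values were 2.10 and 1.84 and both passed (adjusted p = 0.000946 and 0.0107), whereas with the slow fibre score they were 4.19 and 3.53 and neither passed (adjusted p = 0.239 and 0.191). Pnpla3, a lipase-family gene that follows insulin and SREBP1c, was at 1.85, 2.52, 2.36 and 2.56 CPM in the controls and 22.9, 23.1 and 4.16 CPM in CREX (log2 fold change 2.84 ± 0.57, adjusted p = 0.0204), and here the highest libraries were replicates 1 and 2. Pnpla3 passed with the slow fibre score as a term (adjusted p = 0.0258).

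Genes of the neuromuscular junction rose in part. Of 22 tested, 7 were upregulated and 2 downregulated. Chrnb1, an acetylcholine receptor subunit, was at 18.5, 19.8, 22.05 and 16.3 CPM in the controls and 36.1, 63.3 and 76.7 CPM in CREX, and Musk, the kinase that organizes the synapse, at 16.9, 17.6, 16.8 and 16.5 and 30.02, 48.01 and 78.8 CPM. CREX replicate 1 was the lowest CREX library for both and lay above the controls. The log2 fold changes were 1.61 ± 0.22 (adjusted p = 0.00299) and 1.62 ± 0.26 (adjusted p = 0.00612), and Hdac9, a deacetylase that represses synaptic genes, had a log2 fold change of -1.56 ± 0.27 (adjusted p = 0.00606). With the slow fibre score as a term 1 of the 22 genes passed, Myod1, and the values of Chrnb1 and Musk were 0.81 and 0.66. CR against control, where the summed slow fibre level lay within the control range, gave 7 upregulated and 2 downregulated of 22 (median 0.44).

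Among 21 myokine genes 6 were downregulated and 1 upregulated (median -0.60). Bdnf, the brain-derived neurotrophic factor, was at 1.02, 1.68, 1.36 and 1.70 CPM in the controls and 0.245, 0.124 and 0.202 CPM in CREX, which is 22 to 41 reads against 3 to 6 reads a library. Cx3cl1 (fractalkine), a leukocyte attractant, was at 2.78, 5.45, 3.91 and 4.26 and 0.897, 0.497 and 1.01 CPM, and Angpt1, a vessel-stabilizing factor, at 5.88, 7.87, 5.68 and 9.02 and 2.57, 0.911 and 1.86 CPM. No CREX library overlapped with a control for these genes. Log2 fold changes were -2.89 ± 0.37 (adjusted p = 0.00194), -2.35 ± 0.31 (adjusted p = 0.0022) and -1.998 ± 0.32 (adjusted p = 0.0052). With the slow fibre score as a term 2 of the 21 genes passed, Cx3cl1 and Sparc, and the median was -0.38. Bdnf and Angpt1 did not pass in that fit (adjusted p = 0.0713 and 0.0712). In CR against control 8 of 21 myokine genes were downregulated and 1 upregulated (median -0.41).

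Among endothelial genes, the level in CREX replicate 1 was mostly nearer to the controls than in replicates 2 and 3. Of 23 angiogenic factors and receptors 5 were downregulated (Angpt1, Aplnr, Icam2, Vegfc and Cd34) and 1 upregulated (Vegfd, median -0.60). In CR against control 6 of 23 were downregulated and 1 upregulated (median -0.36). The endothelial cadherin Cdh5 was at 74.9, 89.2, 104 and 92.1 CPM in the controls and 68.9, 42.9 and 31.5 CPM in CREX and had a log2 fold change of -0.92 ± 0.25 (adjusted p = 0.0358). Kdr, the main VEGF receptor, was at 40.1, 55.6, 59.4 and 46.5 and 32.8, 11.8 and 8.77 CPM and did not pass (log2 fold change -1.50 ± 0.46, adjusted p = 0.0696), nor did Tek (log2 fold change -0.82 ± 0.25, adjusted p = 0.0529) or Pecam1 (log2 fold change -0.53 ± 0.18, adjusted p = 0.0711). The apelin receptor Aplnr had a log2 fold change of -2.10 ± 0.40 (adjusted p = 0.011) and Bcl6b, an endothelial repressor, one of -2.33 ± 0.16 (adjusted p = 0.000155). Bcl6b was the exception in that its 3 CREX libraries were alike, at 2.86, 3.27 and 2.91 CPM against 11.8, 14.7, 16.8 and 17.2 CPM in the controls. With the slow fibre score as a term over 14 libraries none of the 23 angiogenic genes passed (median -0.18), and neither did Cdh5 (-0.20, adjusted p = 0.717) or Bcl6b (-1.75, adjusted p = 0.15).

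The genes with the largest or surest changes were of mixed function. Gpr179, an orphan receptor gene, had 0 reads in all 4 controls and 17, 30 and 34 reads in CREX. Against a floor of 3 reads in a control library it was at least 7.90-fold higher in CREX. Doc2b, a calcium sensor of vesicle fusion, was at 0.278, 0.279, 0.409 and 0.290 CPM in the controls and 3.34, 3.65 and 5.50 CPM in CREX (log2 fold change 3.70 ± 0.28, adjusted p = 0.00018), and Plekhh1 at 0.139, 0.419, 0.364 and 0.414 and 3.79, 6.34 and 5.66 CPM (log2 fold change 3.94 ± 0.31, adjusted p = 0.000212). Gabrr2, a subunit of a GABA receptor, rose from 0.652-1.14 to 4.73, 11.9 and 23.8 CPM (log2 fold change 4.000 ± 0.55, adjusted p = 0.00511), Fibin from 2.95-3.39 to 13.1, 18.9 and 14.6 CPM (log2 fold change 2.29 ± 0.15, adjusted p = 9.78e-05) and Glb1l2 from 1.40-2.08 to 12.9, 8.78 and 15.2 CPM (log2 fold change 2.75 ± 0.22, adjusted p = 0.000212). Downward, Chrna2, a neuronal-type acetylcholine receptor subunit, was at 4.68, 3.87, 5.14 and 4.59 CPM in the controls and 0.530, 0.166 and 0.0404 CPM in CREX. Pkdcc, a secreted kinase of matrix proteins, was at 83.95, 88.97, 81.95 and 77.9 and 32.3, 32.97 and 31.9 CPM. Of these, Pkdcc had the smallest spread between the CREX libraries relative to its level. The log2 fold changes were -4.19 ± 0.46 (adjusted p = 0.00103) and -1.37 ± 0.10 (adjusted p = 0.00018). Gpr179, Doc2b, Plekhh1, Glb1l2, Chrna2 and Pkdcc passed with the slow fibre score as a term, and Gabrr2 and Fibin did not (adjusted p = 0.278 and 0.135).

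Cytosolic ribosome genes showed a small common difference that depended on the fit. Of 85 genes 83 had a positive log2 fold change (median 0.40), and 2 were upregulated, Rpl12 (log2 fold change 1.06 ± 0.26, adjusted p = 0.024) and Rpl4 (log2 fold change 0.77 ± 0.20, adjusted p = 0.0266). The share upregulated was under the 5.28% over all genes tested. The median was -0.20 with the slow fibre score as a term and -0.06 in CREX replicate 1 alone, whereas it was 0.58 without that library, where 28 genes passed, and 0.42 with the adipocyte score as a term. In CR against control the median was 0.42 and 3 of 85 genes were upregulated.

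The single interventions show what each arm gave in the same muscle. All 3 comparisons share the 4 control libraries, so their values are set side by side and no overlap between them is counted. CR against control gave 1264 DEGs of 13173 (9.6%), with 4.27% of genes upregulated and 5.32% downregulated, and EX against control gave 10 of 12907 (0.0775%), 0.0232% upregulated and 0.0542% downregulated. Fkbp5 had log2 fold changes of 2.78 ± 0.15 in CR, -0.21 ± 0.17 in EX and 3.06 ± 0.15 in CREX, and Foxo1 of 2.37 ± 0.12, -0.01 ± 0.13 and 2.51 ± 0.25. Col3a1 stood at -2.63 ± 0.13, -0.17 ± 0.15 and -2.37 ± 0.22, and H2-Aa at -2.32 ± 0.31, -0.69 ± 0.22 and -2.12 ± 0.30. In these genes EX was near 0 or small and did not pass (adjusted p of 0.919, 1, 0.936 and 0.454), whereas CR and CREX lay close together. Of the glucocorticoid receptor targets, 16 of 25 were upregulated in CR (median 1.43) and 0 of 23 in EX (median -0.09).

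A few genes passed in EX as well. Nrip1 had log2 fold changes of 1.70 ± 0.13 in CR, 0.94 ± 0.12 in EX (adjusted p = 0.00991) and 2.39 ± 0.18 in CREX. Socs2 stood at 0.76 ± 0.19, 1.33 ± 0.20 (adjusted p = 0.0279) and 2.32 ± 0.30. Ehhadh stood at -0.95 ± 0.13, -0.68 ± 0.11 (adjusted p = 0.0279) and -1.37 ± 0.20, and Acot1 at -0.08 ± 0.26, -1.40 ± 0.19 (adjusted p = 0.0138) and -1.78 ± 0.31. Cish was at 14.8, 13.3, 64.2 and 6.71 CPM in EX and 11.7, 59.7 and 10.8 CPM in CR, with 1 library high in each, and it passed in CR but not in EX (adjusted p = 0.0496 and 0.65). The summed level of slow fibre genes was 2212 to 2471 CPM in CR, within the control range, and it ranged from 574 to 2473 CPM in EX.

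Whether CREX differed from the sum of CR and EX was tested by the interaction, (CREX minus EX) minus (CR minus control), over all 14 libraries. No gene of 13610 passed in edgeR, with 669 at an unadjusted p under 0.05 and a smallest adjusted p of 0.922. DESeq2 called 1 gene, Gnmt, at -2.36 (adjusted p = 0.0255), named after its value was seen. Without CREX replicate 1 the test called 182 genes, 143 of them below the sum, led by Ldhb (-2.30), the lactate dehydrogenase subunit of oxidative fibres, Tpm2 (-1.67) and Fndc5 (-1.79), which were likewise named after their values were seen. Among the genes described, the interaction of Fkbp5 was 0.51 ± 0.28 and that of Foxo1 0.16 ± 0.31 (adjusted p = 0.941 and 0.97), that of Cish -0.61 ± 1.21 and that of Col3a1 0.45 ± 0.29 (adjusted p = 0.972 and 0.941). A p that misses the threshold does not show that the effects of CR and EX add up.

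**Figure D5:**
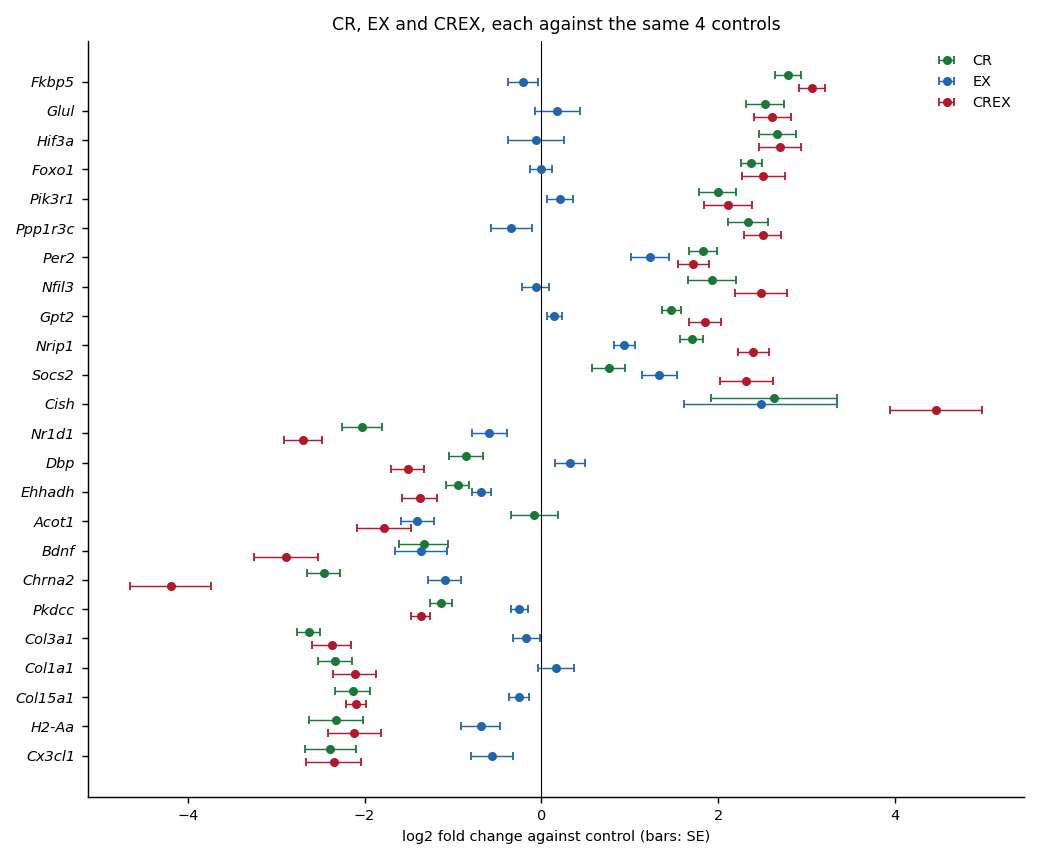
Log2 fold change against the shared 4 controls (bars, SE) of 24 genes in CR, EX and CREX. For most genes CR and CREX lie side by side and EX near 0, while Nrip1, Socs2, Cish, Ehhadh, Acot1 and Bdnf also have a departure from 0 in EX. Those of Cish and Bdnf did not pass the test.

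The same regimen in BAT, 4 CREX against 3 control libraries, gave 1115 DEGs of 13432 (8.3%), with 3.42% upregulated and 4.88% downregulated, and the difference between the CREX effects of the tissues passed for 1144 of 14346 genes (7.97%), 581 (4.05%) with a higher and 563 (3.92%) with a lower effect in SkM. The labels do not say whether the tissues came from the same mice. Muscle fibre genes had positive values in BAT, with median log2 fold changes of 4.38 for the slow and 3.20 for the fast fibre list, no member of which passed there, and their part in the tissue difference was not tested. Glucocorticoid receptor targets had 10 upregulated and 3 downregulated members among 24 in BAT (median 0.73), and Fkbp5 had a log2 fold change of 3.86 ± 0.47 there, and its difference between the tissues did not pass (-0.78 ± 0.44, adjusted p = 0.299). Foxo1 was at -0.25 ± 0.22 in BAT, and the difference of 2.78 ± 0.36 passed (adjusted p = 0.0015). Tead1, a factor of the Hippo pathway, was downregulated in SkM (-1.12 ± 0.22) and upregulated in BAT (2.07 ± 0.16), and the nuclear corepressor Hr was upregulated in SkM (1.02 ± 0.15) and downregulated in BAT (-1.42 ± 0.12), with differences of -3.17 ± 0.31 and 2.45 ± 0.20 (adjusted p = 9.16e-05 and 1.39e-05). In SkM, Hr passed with the slow fibre score as a term, and so did Cntfr (1.57), whose tissue difference is given below.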

How the data were processed

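Total RNA of gastrocnemius and BAT was sequenced on a BGIseq500 with 150 bp paired ends. The authors trimmed reads with trim-galore, aligned them to mm10 with STAR (2.7.10a per the labels) and deposited RSEM expected counts for 24770 gene symbols, not normalized, of which 6.11% of values were fractional. The annotation and whether counting used strand are not given in the sources used here, so antisense partners cannot be told apart, and 27 symbols had been turned into dates. Values were rounded to whole counts. The 14 SkM libraries held 23050918 to 23425284 counts. Floors cover counting error only, whereas the SE of a fold change also holds the spread between libraries. None of the 9 pairs of libraries within the control or CREX group agreed within sampling noise.

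Groups came from the labels. CREX and control libraries were compared with edgeR 4.0.16 in R 4.3.3 (filterByExpr, TMM, robust glmQLFit, glmQLFTest), with p-values adjusted by Benjamini-Hochberg, and the threshold for a DEG was 0.05 together with a fold above 1.5. The interaction was fitted over 14 libraries and the tissue difference over the control and CREX libraries of both tissues, with an adjusted p under 0.05. SE is the log2 fold change over the square root of F, and CPM used TMM factors of the 14 libraries. DESeq2 1.42.0, other scaling and filters, a replicate block, covariate scores and left-out libraries were the alternatives. Genes with the largest changes without overlap (10 in each direction, mean of at least 1 CPM), the 10 smallest p, up to 4 a list, the 3 most abundant markers and up to 5 a side of the interaction and tissue difference were named. Gabarapl1, Fbxo30, Grb14, Col5a2, Rora, Acsl3, Acsl6, Thrsp, Myod1, Cd34, Vegfd, Myh2 and Myh7 were named outside this rule, after their values were seen, and some genes that the rule gives are not reported here. Members and lists were chosen with earlier results of these data known. Promoter sequences are from RefSeq (GRCm38.p6). The scripts were tested on simulated data.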

Additional observations from a re-analysis of the deposited data

Results flagged for a closer look

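The values here are the log2 effect of CREX in SkM minus that in BAT, with an adjusted p under 0.05 in edgeR's quasi-likelihood test of the difference itself, for 47 of the genes described. Among genes of fasting and nutrient handling the SkM effect was higher for Glul (1.44), Foxo1 (2.78), Tbc1d1 (1.71), Deptor (0.76), Gpt2 (0.91), Ppp1r3c (2.27), Nfil3 (2.70) and the activin receptor Acvr1b (1.34), and lower for Ugp2 (-1.08) and Igfbp7 (-0.71).

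Among genes of oxidative metabolism it was lower for Ehhadh (-1.63), Hadhb (-1.14), Acot1 (-3.80), ND3 (-0.95), COX2 (-0.80), Mdh1 (-1.33), Cd38 (-1.33), Ppargc1b (-1.32) and Esrrg (-2.05), and higher for Ucp3 (1.80), Plin4 (1.72) and Nrip1 (1.68). It was higher for the lipid genes Scd1 (3.84), Fasn (2.64), Pnpla3 (2.23) and Abca1 (1.44).

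The slow fibre genes Tpm3, Atp2a2, Tnni1 and Tnnc1 differed by -3.30, -3.48, -9.72 and -9.20. Tnni1 and Tnnc1 had means of 18.4 and 19.8 CPM in the BAT CREX libraries and 0.302 and 0.480 CPM in the BAT controls, and the part of the difference that these BAT levels make up was not tested. Col3a1 (-0.997), Angpt1 (-1.75), Hdac9 (-1.41), Chrna2 (-4.71), Bdnf (-2.37), Pkdcc (-1.63), Tead1 (-3.17), Cyp4b1 (-1.82) and As3mt (-1.63) had a lower effect in SkM, and Plekhh1 (4.16), Gabrr2 (3.99), Fibin (2.10), Glb1l2 (3.21), Cntfr (2.83), Hr (2.45), Gmpr (1.88) and Abi3 (1.74) a higher one.

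In 8 of 124 genes 1 control library lay apart from the other 3 by Dixon's test, which chance gives in about 1 of 20 groups. Control replicate 2 was high for Cish (8.57 CPM) and low for Col6a2 (27.7 CPM) and Ehhadh (9.04 CPM). Control replicate 1 was high for Hadhb (441 CPM) and Nrip1 (13.2 CPM), replicate 3 for Pecam1 (77.7 CPM) and Doc2b (0.409 CPM), and replicate 4 for Acvr1b (19.9 CPM).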

How the results depend on the processing

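The count of 1547 DEGs lay between 1363 and 2319 with DESeq2, size factors of relative log expression, all genes kept, a minimum of 10 counts for each library, 1 fit over all 4 SkM groups, an adipocyte score, no fold minimum or no adjustment, and was 735 with a fold above 2. It was 952 with a replicate block, 555 in CREX replicate 1 alone, and 60 and 186 with the slow fibre score over 7 and 14 libraries. The adipocyte score, the score over 14 libraries and CREX replicate 1 alone were chosen after seeing the data, and in the last of these the lone library is assumed to vary like the controls. Leaving out 1 library gave 811 to 2795 DEGs: 1134, 815, 855 and 1114 without control replicates 1 to 4, and 2795, 811 and 940 without CREX replicates 1 to 3. The interaction count was 0 in edgeR, 1 in DESeq2, and 0 to 182 without 1 library, 182 without CREX replicate 1. The tissue difference count was 1837 in DESeq2, 670 with the replicate block, and 666 to 2554 without 1 library (666 and 722 without control replicates 2 and 3, 2554, 718 and 704 without CREX replicates 1 to 3). With the slow fibre score over 7 libraries Trim63 turned to -0.29, Mstn to -0.0089, Cdh5 to 0.039 and Rpl4 to -0.051, and over 14 libraries Trim63 to -0.19. Of the 124 genes described, 50 kept their side of the threshold and their direction with the score over 14 libraries, 73 no longer passed and 1 reversed; in CREX replicate 1 alone 78 kept both, and with size factors of relative log expression 124 did. The cause of these changes was not tested. Control and CREX libraries of the same replicate number correlated at -0.051, 0.145 and -0.066 in their deviations from the group means, so the numbers do not pair the samples, and with the replicate block 18 of the 124 genes no longer passed. Of 24770 genes 13114 passed the filter, and a gene under about 0.13 CPM, 3 counts, could not be told from 0 in a library.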

Other observations

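Some gene groups outside those described also held changed members in CREX, with counts to be read beside the 5.28% of all genes tested that were upregulated and the 6.51% that were downregulated. None of the genes given with values here passed with the slow fibre score as a term over 14 libraries. Of 27 glycolysis genes 3 were upregulated, Slc2a3, Pfkfb4 and Gpi1, and none downregulated (median 0.18). Slc2a3, a high-affinity glucose transporter, was at 5.65, 5.12, 5.50 and 5.54 CPM in the controls and 11.2, 35.2 and 25.3 CPM in CREX (2.12 ± 0.32, adjusted p = 0.0055 in edgeR's quasi-likelihood test), and Pfkfb4, which makes the activator of phosphofructokinase, had a log2 fold change of 1.12 ± 0.22 (adjusted p = 0.0127). Both were lowest in replicate 1 among the CREX libraries and did not overlap with the controls. At the entry of pyruvate into mitochondria the pyruvate dehydrogenase phosphatase Pdp2 had a log2 fold change of -1.38 ± 0.26 (adjusted p = 0.00975), and all 20 genes of the TCA cycle had negative values (median -0.32), of which Mdh1, Sdhb and Sdhc were downregulated. Mdh1, the cytosolic malate dehydrogenase counted in that list, was at 543, 509, 437 and 425 CPM in the controls and 389, 173 and 204 CPM in CREX (-0.91 ± 0.27, adjusted p = 0.0474).

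Of 27 sterol genes 2 were upregulated, the cholesterol exporter Abca1 (1.37 ± 0.24, adjusted p = 0.00759) and Hsd17b7 of the synthesis pathway (1.72 ± 0.37, adjusted p = 0.0192), and none downregulated. In the myogenic list 3 of 28 genes were upregulated (Myf6, Cdh15 and Myod1) and 5 downregulated (Hes1, Six4, Heyl, Vcam1 and Cd34). Myf6, a myogenic factor of mature fibres, was at 61.8, 53.3, 51.04 and 46.9 CPM in the controls and 75.3, 117 and 163 CPM in CREX (1.14 ± 0.22, adjusted p = 0.0104), and the adhesion gene Cdh15 had a log2 fold change of 0.77 ± 0.16 (adjusted p = 0.0126). Hes1, a Notch target, was at 10.3, 9.83, 9.59 and 7.16 and 5.02, 3.52 and 3.07 CPM (-1.25 ± 0.20, adjusted p = 0.00505), and the homeobox gene Six4 had a log2 fold change of -1.18 ± 0.23 (adjusted p = 0.0104). The activin receptor Acvr1b was at 14.03, 14.4, 14.2 and 19.9 CPM in the controls and 36.96, 43.95 and 36.5 CPM in CREX (1.31 ± 0.15, adjusted p = 0.00103), and every CREX library lay above every control.

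In the stress lists the share of genes that passed was near that over all genes tested. Of 28 heat shock genes 24 had negative values and 2 were downregulated, Hspa1l and the small heat shock protein Cryab (-1.13 ± 0.30, adjusted p = 0.0342). Of 31 antioxidant genes 2 were upregulated (Gsta3 and Gstm2) and 2 downregulated (Prdx6 and catalase). The glutathione transferase Gsta3 was at 0.0463, 0.279, 0 and 0.0827 CPM in the controls and 1.999, 1.04 and 1.01 CPM in CREX, with control levels at or below a few reads. In the ER stress list 1 of 25 genes was upregulated and 2 were downregulated. Chac1, a glutathione-degrading enzyme, had a log2 fold change of 1.26 ± 0.32 (adjusted p = 0.0341) and Ddit3 (CHOP) one of -0.74 ± 0.16 (adjusted p = 0.0149), and Pdia3 was the other downregulated gene. In the NAD list 3 of 19 genes were downregulated (Cd38, Nmrk2 and Sirt3), with the NAD-consuming enzyme Cd38 at -1.31 ± 0.28 (adjusted p = 0.0147) and Nmrk2 at -1.76 ± 0.42 (adjusted p = 0.0315). Of 23 immediate early genes 2 were upregulated, Myc (1.96 ± 0.37, adjusted p = 0.0117) and Klf6 (1.08 ± 0.30, adjusted p = 0.0415), and 2 downregulated, Ier2 and Egr2, with Egr2 at -1.25 ± 0.26 (adjusted p = 0.0138). Nr4a3 was at 269 CPM in CREX replicate 3, at 2.20 and 2.86 CPM in replicates 1 and 2, and at 1.62 to 5.17 CPM in the controls. Nr4a3, Myod1, Heyl, Vcam1 and Cd34 were named after their values were seen. Among interferon-stimulated genes Ifi44 had a log2 fold change of -2.13 ± 0.48 (adjusted p = 0.0178).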
